A study of Mus musculus with 6 samples.

Results

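The p53 pathway and the CDK inhibitors of the INK4 locus were followed through 10 named genes: Trp53 itself, its targets Mdm2, Cdkn1a, Ccng1, Plk2, Bax, Aen and Phlda3, and the CDK inhibitor genes Cdkn2a and Cdkn2b. They were taken by name, with earlier results of these data known, and all 10 were found among the 37620 genes counted. All 10 also passed the filter on low counts. Bulk RNA was counted in 3 groups of mouse cells with 2 libraries each, called 1 and 2 here. Phc1-KO cells carry the genotype entry Phc1-/- and were derived from J1 embryonic stem cells. NPC are wild-type neural progenitor cells obtained from J1 stem cells by differentiation in culture. ESC are wild-type J1 embryonic stem cells kept with LIF and serum on feeder layers of embryo fibroblasts, which had been stopped from dividing with mitomycin-C. Stem cells were separated from the feeders before use. All groups therefore share the J1 background, and the labels do not say whether the Phc1-KO line is a single clone or which part of Phc1 was removed.

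Phc1, which encodes a Polyhomeotic protein of the Polycomb complex PRC1, lies on chr6:122267749-122290579 (mm9, minus strand). It was counted at 326 and 267 CPM in the libraries labelled Phc1-KO, 40.8 and 34.6 CPM in NPC and 459.7 and 461 CPM in ESC, where CPM scales the counts to a common library size. The Phc1-KO level was lower than in ESC (log2 fold change -0.63 ± 0.15 SE, edgeR adjusted p = 0.0412, range over 14 alternatives 0.0105 to 0.316, past the threshold in 9 of them). It was far from 0, and a count over the whole gene cannot check a deletion of unknown extent. The cell type entry of the Phc1-KO libraries reads NPC, whereas the study's title and design call these cells ESC. Summed ESC markers (8 genes, such as Pou5f1 and Nanog) reached 2136 and 2555 CPM in Phc1-KO, 12.0 and 14.0 CPM in NPC and 2184 and 2203 CPM in ESC. Summed NPC markers (8 genes, such as Nes and Fabp7) reached 946 and 732 CPM in Phc1-KO, 5157 and 2995 CPM in NPC and 616 and 616 CPM in ESC. By these sums the Phc1-KO libraries stand with ESC, against their cell type entry. Of the 8 NPC markers, 1 passed as higher in Phc1-KO than in ESC: Pax6, at 21.5 and 20.8 CPM in Phc1-KO, 21.0 and 16.9 CPM in NPC and 4.44 and 4.68 CPM in ESC. Over all genes tested, 10.7% passed in that comparison. Of the 8 ESC markers, 1 passed as lower there: Nanog, at 136 and 112 CPM in Phc1-KO, 0.329 and 0.584 CPM in NPC and 218 and 223 CPM in ESC (log2 fold change -0.83 ± 0.16 SE against ESC, edgeR adjusted p = 0.0245), a call lost without Phc1-KO 2, ESC 1 or ESC 2 or with the ESC pair summed (adjusted p between 0.111 and 0.228). Depth ran between 15226214 and 21893821 reads in genes per library.

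The p53 protein is a transcription factor that is kept low by Mdm2, a ubiquitin ligase which is itself a p53 target, and that is released by DNA damage or by the Arf product of Cdkn2a. Its targets either hold the cell cycle, as p21 from Cdkn1a does by blocking cyclin-dependent kinases, or start cell death, as the pore-forming protein Bax does. The p16Ink4a product of Cdkn2a and the p15Ink4b product of Cdkn2b block CDK4 and CDK6 and so keep the retinoblastoma protein active. The Cdkn2a and Cdkn2b genes lie side by side and are textbook targets of Polycomb repression, with Bmi1, Cbx7, Cbx8 and Ezh2 among their known repressors.

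In the mm9 genome, Trp53 (ENSMUSG00000059552) lies at chr11:69393861-69405375 on the plus strand, Mdm2 (ENSMUSG00000020184) at chr10:117125944-117147814 on the minus strand, Cdkn1a (ENSMUSG00000023067) at chr17:29227924-29237667 on the plus strand, Ccng1 (ENSMUSG00000020326) at chr11:40562054-40568813 on the minus strand and Plk2 (ENSMUSG00000021701) at chr13:111185252-111191052 on the plus strand. Bax (ENSMUSG00000003873) lies at chr7:52717065-52722268 on the minus strand, Aen (ENSMUSG00000030609) at chr7:86040740-86056095 on the plus strand and Phlda3 (ENSMUSG00000041801) at chr1:137662696-137665713 on the plus strand. Cdkn2a (ENSMUSG00000044303, chr4:88920377-88940557) and Cdkn2b (ENSMUSG00000073802, chr4:88952198-88956941) are both on the minus strand, with the Cdkn2b start 16.4 kb from that of Cdkn2a. Counts are sums over all exons, so the Ink4a and Arf transcripts of Cdkn2a are not separated.

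Binding sites of p53 consist of a pair of 10-base half-sites. A full consensus site of 2 directly joined half-sites, with at most 1 mismatch, was searched on both strands within 5000 bases of each gene's start in mm9. The mismatch could not fall on the fixed C or G of a half-site. A gene's start is its outermost annotated base, which for Cdkn1a is the most upstream of 3 annotated starts. Of 22337 protein-coding gene starts, 384 (1.72%) had such a match. Matches stood near 3 of the 10 genes. They are printed to show the letters of each match and its distance from the start, for the targets Cdkn1a and Ccng1 and for the INK4 gene Cdkn2b. All 20 letters of each match are in capitals.
Cdkn1a, chr17:29227873-29227892, plus strand, mm9, centre 41 bases before the start: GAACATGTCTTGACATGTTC
Ccng1, chr11:40568964-40568983, minus strand, mm9, centre 161 bases before the start: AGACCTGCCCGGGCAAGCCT
Ccng1, chr11:40568438-40568457, minus strand, mm9, centre 365 bases after the start: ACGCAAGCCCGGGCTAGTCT
Cdkn2b, chr4:88954309-88954328, minus strand, mm9, centre 2622 bases after the start: AGACATGTCCGGTCTTGCTC
A match is a description of letters, not a bound site, and the other 7 genes had no match of these letters in that window. Sites with bases between the half-sites were not searched, so the lack of a match does not show that a gene has no site.

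Promoters of all 10 genes were found in RefSeq (build GRCm38.p6), 13 in all, each running from 250 bases before to 50 bases after a transcript start. A p53 half-site with no mismatch was present in 8.36% of the 32851 promoters in that table, and the median promoter held 7 CpG. The first pair below shows targets with half-sites close to an annotated start, with the half-sites in capitals. For Cdkn1a this is an upstream start, and 2 half-sites began at positions -73 and -51 from it. In the Ccng1 promoter 1 half-site began at -185.
Cdkn1a, chr17:29090729-29091028, plus strand, GRCm38.p6: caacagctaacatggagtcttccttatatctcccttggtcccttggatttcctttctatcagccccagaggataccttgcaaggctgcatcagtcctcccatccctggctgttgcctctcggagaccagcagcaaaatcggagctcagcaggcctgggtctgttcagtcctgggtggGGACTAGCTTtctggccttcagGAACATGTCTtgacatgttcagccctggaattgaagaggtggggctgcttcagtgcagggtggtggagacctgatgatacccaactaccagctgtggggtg
Ccng1, chr11:40755237-40755536, minus strand, GRCm38.p6: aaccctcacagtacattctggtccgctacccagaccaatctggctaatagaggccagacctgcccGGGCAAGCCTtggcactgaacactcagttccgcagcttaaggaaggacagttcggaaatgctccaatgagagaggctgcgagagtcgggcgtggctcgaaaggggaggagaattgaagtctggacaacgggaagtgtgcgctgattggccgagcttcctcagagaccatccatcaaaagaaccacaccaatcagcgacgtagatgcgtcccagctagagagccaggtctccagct
The Cdkn1a promoter shown held 2 CpG and the Ccng1 promoter 14. The second Cdkn1a promoter lies downstream, at chr17:29093519-29093818, and held 23 CpG. One half-site each was also found in promoters of Mdm2, Bax, Trp53 and Aen, and none in those of Plk2 and Phlda3 or in the second Cdkn1a promoter.

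The next 3 promoters show the Polycomb-regulated INK4 locus, where CpG-rich starts are the known platform of Polycomb complexes. None of them holds a p53 half-site, so no letter is in capitals.
Cdkn2a, upstream start (Arf), chr4:89294570-89294869, minus strand, GRCm38.p6: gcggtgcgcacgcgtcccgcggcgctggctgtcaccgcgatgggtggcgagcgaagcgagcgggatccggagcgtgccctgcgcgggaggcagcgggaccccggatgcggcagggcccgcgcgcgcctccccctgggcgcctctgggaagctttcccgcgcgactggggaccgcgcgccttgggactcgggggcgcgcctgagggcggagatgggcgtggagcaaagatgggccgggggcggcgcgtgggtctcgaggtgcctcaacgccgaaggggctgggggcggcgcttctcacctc
Cdkn2a, downstream start (Ink4a), chr4:89282143-89282442, minus strand, GRCm38.p6: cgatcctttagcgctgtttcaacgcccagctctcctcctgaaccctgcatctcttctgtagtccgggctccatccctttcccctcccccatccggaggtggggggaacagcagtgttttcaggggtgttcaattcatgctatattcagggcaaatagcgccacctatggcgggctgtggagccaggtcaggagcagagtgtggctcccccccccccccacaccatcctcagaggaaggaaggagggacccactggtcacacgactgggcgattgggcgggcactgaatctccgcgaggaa
Cdkn2b, chr4:89310983-89311282, minus strand, GRCm38.p6: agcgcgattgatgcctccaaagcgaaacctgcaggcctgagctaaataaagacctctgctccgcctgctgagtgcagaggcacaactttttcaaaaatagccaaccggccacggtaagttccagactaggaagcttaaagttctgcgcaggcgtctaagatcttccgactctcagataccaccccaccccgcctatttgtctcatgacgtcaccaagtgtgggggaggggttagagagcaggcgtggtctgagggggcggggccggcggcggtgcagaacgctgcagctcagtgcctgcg
The upstream Cdkn2a promoter held 45 CpG, the most among the 13, the downstream one 12 and the Cdkn2b promoter 18. No absence of a motif in these windows says anything about binding of a factor.

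Per length, Ccng1 was the most abundant of the 10 transcripts in every group. In RPKM (CPM per kilobase of exon), Ccng1 averaged 180.5 in Phc1-KO, 427 in NPC and 112 in ESC. Bax came second in Phc1-KO (167 RPKM) and in ESC (94.1 RPKM), and Plk2 came second in NPC (197 RPKM). Trp53 was low among the 10, at 19.3 RPKM in Phc1-KO, 10.5 RPKM in NPC and 18.5 RPKM in ESC. Cdkn2a and Cdkn2b were the 2 lowest in ESC, at 11.7 and 8.77 RPKM. Cdkn2a stood sixth in both other groups, at 38.4 RPKM in Phc1-KO and 62.9 RPKM in NPC. All 50-base stretches of the exons were unique in mm9 for 6 of the 10 genes, while 18.3% of those of Aen, 4.8% of Trp53, 2.12% of Mdm2 and 0.808% of Ccng1 had another exact copy. Reads that aligned to more than 1 place were tallied apart from the genes, so reads from such stretches could be lost.

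**Figure D1:**
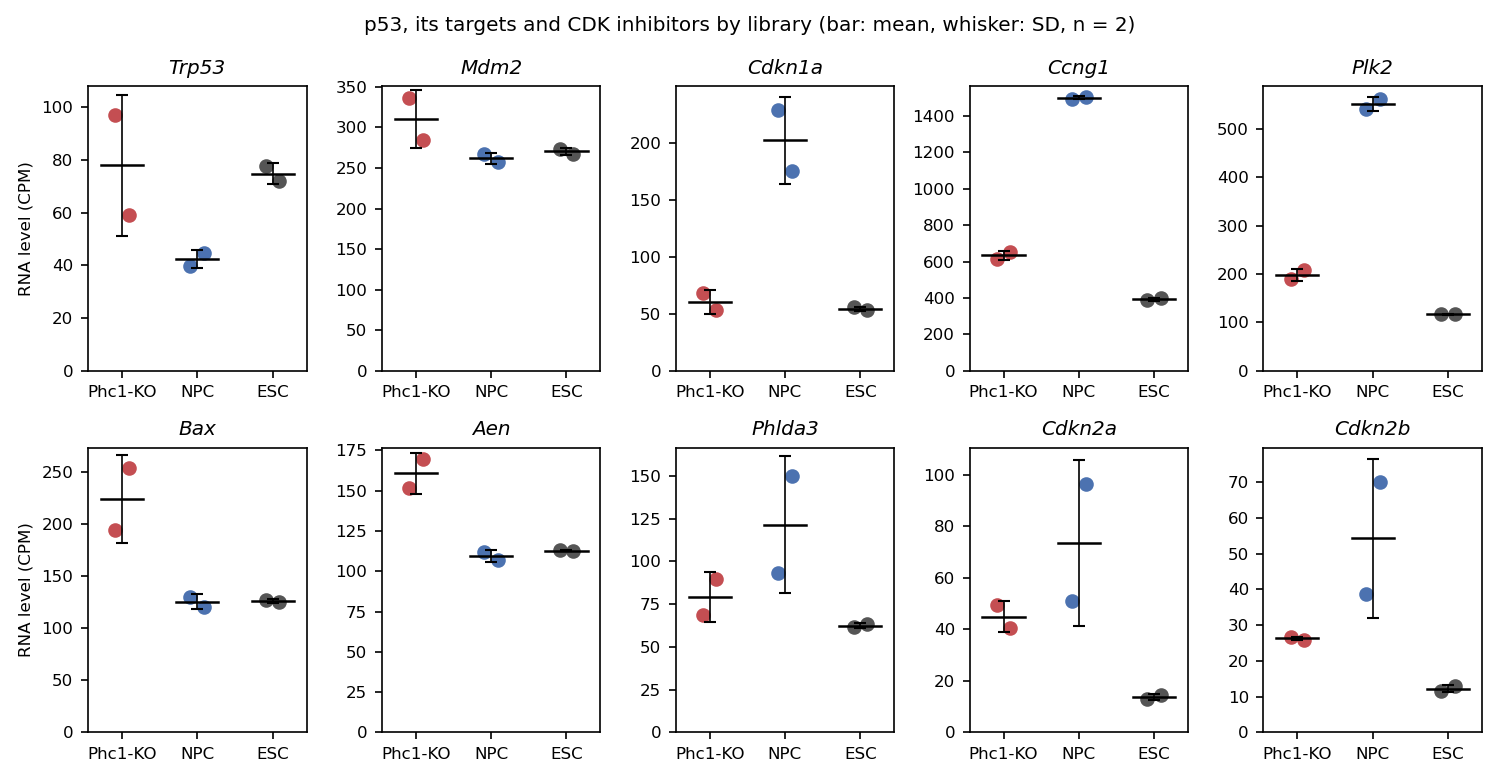
RNA level (CPM) of each of the 10 genes in every library of Phc1-KO, NPC and ESC, with the mean as a bar and the SD as a whisker (n = 2 per group). Cdkn1a, Ccng1 and Plk2 stand apart in NPC, Bax and Aen in Phc1-KO, and Cdkn2a and Cdkn2b are lowest in ESC.

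Trp53 mRNA was lower in NPC than in either other group, while Mdm2 mRNA showed no difference that passed the test. Trp53 was at 96.8 and 59.1 CPM in Phc1-KO, 39.9 and 44.7 CPM in NPC and 77.5 and 71.8 CPM in ESC. Both NPC libraries were below all 4 others, and the Phc1-KO pair spanned the ESC pair. Trp53 fell in NPC against ESC by 0.82 ± 0.23 SE on the log2 scale (edgeR quasi-likelihood test, adjusted p = 0.0189). Between Phc1-KO and ESC the log2 fold change of Trp53 was 0.06, with a 95% interval of -0.48 to 0.60. Its fall in NPC missed the threshold without ESC 1 (adjusted p = 0.0850), without ESC 2 (0.0560), without NPC 1 (0.0684) and with the ESC pair summed (0.0585), in a range of adjusted p over 14 alternatives of 0.00388 to 0.0850. Trp53 was higher in Phc1-KO than in NPC (log2 fold change 0.88 ± 0.23 SE, edgeR adjusted p = 0.0132).

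Mdm2, the ubiquitin ligase that marks p53 for destruction, was at 336 and 285 CPM in Phc1-KO, 267 and 257 CPM in NPC and 273 and 267 CPM in ESC. All 4 wild-type libraries lay close together, and both Phc1-KO libraries were above them. Its log2 fold change was -0.05 in NPC against ESC (95% interval -0.35 to 0.26), 0.20 in Phc1-KO against ESC (-0.10 to 0.50) and 0.24 in Phc1-KO against NPC (-0.06 to 0.55). The last passed only without Phc1-KO 2 (edgeR adjusted p = 0.0233, range over the alternatives 0.0233 to 0.264).

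The 3 targets tied to cell cycle control were all higher in NPC than in ESC, with log2 fold changes between 1.89 and 2.23. Cdkn1a, whose product p21 inhibits cyclin-dependent kinases, was at 68.2 and 53.1 CPM in Phc1-KO, 229 and 175 CPM in NPC and 55.8 and 53.05 CPM in ESC. The NPC libraries stood clear of all others, and the Phc1-KO and ESC pairs overlapped. Cdkn1a was higher in NPC than in ESC, with a log2 fold change of 1.89 ± 0.19 SE (edgeR adjusted p = 0.000205). Its value in Phc1-KO against ESC was 0.16 (95% interval -0.28 to 0.59), which did not pass.

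Ccng1, which encodes cyclin G, an early p53 target, was at 616 and 652 CPM in Phc1-KO, 1493 and 1505 CPM in NPC and 388 and 398 CPM in ESC. The 3 groups did not overlap, with Phc1-KO between the other two. Ccng1 rose in NPC against ESC (log2 fold change 1.93 ± 0.12 SE, edgeR adjusted p = 3.48e-05) and in Phc1-KO against ESC (0.69 ± 0.12 SE, adjusted p = 0.0179). Plk2, a polo-like kinase active in centriole duplication, showed the same order, at 190.1 and 208 CPM in Phc1-KO, 540.2 and 561 CPM in NPC and 118 and 116 CPM in ESC. Again no groups overlapped. The log2 fold change of Plk2 was 2.23 ± 0.12 SE in NPC against ESC (edgeR adjusted p = 2.14e-05), or 4.71-fold, and in Phc1-KO against ESC 0.76 ± 0.12 SE (adjusted p = 0.0131), or 1.70-fold. Against NPC, Phc1-KO was lower for Cdkn1a (-1.74 ± 0.19 SE), Ccng1 (-1.24 ± 0.12 SE) and Plk2 (-1.47 ± 0.12 SE), with edgeR adjusted p between 8.08e-05 and 0.000257.

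Bax and Aen were higher in Phc1-KO than in both wild-type groups, which lay close together. Bax, the BCL2-family protein that opens the outer mitochondrial membrane, was at 194 and 253 CPM in Phc1-KO, 130.2 and 120.1 CPM in NPC and 127 and 125 CPM in ESC. Both Phc1-KO libraries were above all others, and the NPC pair spanned the ESC pair. Bax was higher in Phc1-KO than in ESC, with a log2 fold change of 0.83 ± 0.16 SE (edgeR adjusted p = 0.0235), or 1.77-fold, and of 0.84 ± 0.16 SE against NPC (adjusted p = 0.00282). In NPC against ESC its log2 fold change was -0.01 (95% interval -0.38 to 0.36).

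Aen, an apoptosis-enhancing nuclease, was at 152 and 169.8 CPM in Phc1-KO, 112 and 107 CPM in NPC and 113 and 113 CPM in ESC. Phc1-KO was again above every wild-type library. On the log2 scale it rose by 0.51 ± 0.12 SE against ESC (edgeR adjusted p = 0.0433) and 0.56 ± 0.12 SE against NPC (adjusted p = 0.00582), and in NPC against ESC the value was -0.04 (95% interval -0.33 to 0.24). Phlda3, which encodes a repressor of Akt at the membrane, was at 68.8 and 89.7 CPM in Phc1-KO, 93.0 and 149.7 CPM in NPC and 61.4 and 63.3 CPM in ESC. Its NPC libraries lay far apart but above all others. Phlda3 rose in NPC against ESC (log2 fold change 0.96 ± 0.24 SE, edgeR adjusted p = 0.0115), a call that was lost without ESC 1 (0.0642), without ESC 2 (0.0567) or with that pair summed (0.0624), in a range over the alternatives of 0.00124 to 0.0642. In Phc1-KO against ESC its value was 0.35 (95% interval -0.22 to 0.91).

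Cdkn2a and Cdkn2b, the lowest of the 10 per length in ESC, were both several times higher in NPC. Cdkn2a had 941 and 839 reads in Phc1-KO, 772 and 1484 in NPC and 207 and 240 in ESC, or 49.3 and 40.6 CPM in Phc1-KO, 50.8 and 96.4 CPM in NPC and 12.8 and 14.6 CPM in ESC. Every Phc1-KO and NPC library was above both ESC libraries, NPC 2 stood well above NPC 1, and NPC 1 was close to Phc1-KO 1. Cdkn2a was higher in NPC than in ESC, with a log2 fold change of 2.43 ± 0.31 SE (edgeR adjusted p = 0.000587), or 5.37-fold, the largest change of the 10 genes. In Phc1-KO against ESC it rose by 1.71 ± 0.31 SE (adjusted p = 0.0197), or 3.28-fold, a call lost without Phc1-KO 1 (adjusted p = 0.0838), Phc1-KO 2 (adjusted p = 0.105), ESC 1 (adjusted p = 0.154) or ESC 2 (adjusted p = 0.121). Phc1-KO against NPC gave -0.71 (95% interval -1.40 to -0.02, adjusted p = 0.0656), which passed without NPC 1 (adjusted p = 0.00206, range over the alternatives 0.00206 to 0.435).

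Cdkn2b was at 26.6 and 25.9 CPM in Phc1-KO, 38.6 and 69.9 CPM in NPC and 11.5 and 12.9 CPM in ESC. No groups overlapped, with Phc1-KO in the middle. It was higher in NPC than in ESC, with a log2 fold change of 2.15 ± 0.29 SE (edgeR adjusted p = 0.000681), or 4.44-fold. In Phc1-KO against ESC the value was 1.10 ± 0.28 SE with adjusted p = 0.0511, just above the threshold, and it passed in 6 of 14 alternatives (range 0.00425 to 0.319). Against NPC, Cdkn2b was lower in Phc1-KO (log2 fold change -1.05 ± 0.27 SE, edgeR adjusted p = 0.0123), a call lost without Phc1-KO 1 (0.0788) or Phc1-KO 2 (0.0911), in a range of 0.000404 to 0.0911. The ratio of Cdkn2a to Cdkn2b CPM was 1.85 and 1.57 in Phc1-KO, 1.32 and 1.38 in NPC and 1.11 and 1.13 in ESC.

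The summed fibroblast markers moved in the same direction as the INK4 genes, though not every marker did. Cultured embryo fibroblasts, the cell type of the feeders, are known to express Cdkn2a and Cdkn2b. The sum of 16 fibroblast markers was 2918 and 2740 CPM in Phc1-KO, 7744 and 12120 CPM in NPC and 1033 and 1009 CPM in ESC, and no marker was at 0 in any library. Relative to the ESC mean, this sum was 2.86 and 2.68 times as high in Phc1-KO and 7.59 and 11.9 times in NPC, beside 3.60 and 2.97 times for Cdkn2a in Phc1-KO and 3.71 and 7.04 times in NPC. Different markers carried the sum in the 2 groups. Col3a1 was its largest part in NPC (4575 and 6361 CPM) but was at 71.9 and 51.8 CPM in Phc1-KO. In CPM, Fbln2 (1162 and 1071) and S100a4 (326 and 368) gained most in Phc1-KO. Both were lower in each NPC library (298 and 135 CPM, 4.80 and 7.60 CPM) than in either ESC library. Of the 16 markers, 9 were higher and 0 lower in Phc1-KO than in ESC, and 11 were higher and 2 lower (S100a4 and Tagln) in NPC than in ESC. The shares over all genes were 10.7% and 61.3%. The 9 became 4 without Phc1-KO 2, ESC 1 or ESC 2 and 13 without either NPC library, higher in each case. Postn (log2 fold change 5.26) and Dcn (3.68) had the largest rises in Phc1-KO, the first lost without Phc1-KO 2 (edgeR adjusted p = 0.0676), while the collagen genes Col1a1 (0.13), Col1a2 (0.62) and Col3a1 (-0.28) did not pass there. The part of such cells in the Cdkn2a and Cdkn2b results was not tested, and in bulk RNA fewer cells of a type and less RNA per cell cannot be told apart. Macrophage markers (10 genes) summed to 28.4 and 21.4 CPM in Phc1-KO, 14.3 and 11.2 CPM in NPC and 144 and 146 CPM in ESC, the opposite direction. Emr1 and Itgam were at 0 in both NPC libraries and Aif1 at 0 in NPC 2. Lyz2 made up most of the ESC sum, at 100 and 102 CPM, beside 12.3 and 6.10 CPM in Phc1-KO. Of 8 markers tested, 6 were lower and 0 higher in Phc1-KO than in ESC, beside 10.7% of all genes. Cd68 differed little, at 8.64 and 9.29 CPM in Phc1-KO and 10.2 and 9.37 CPM in ESC.

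**Figure D2:**
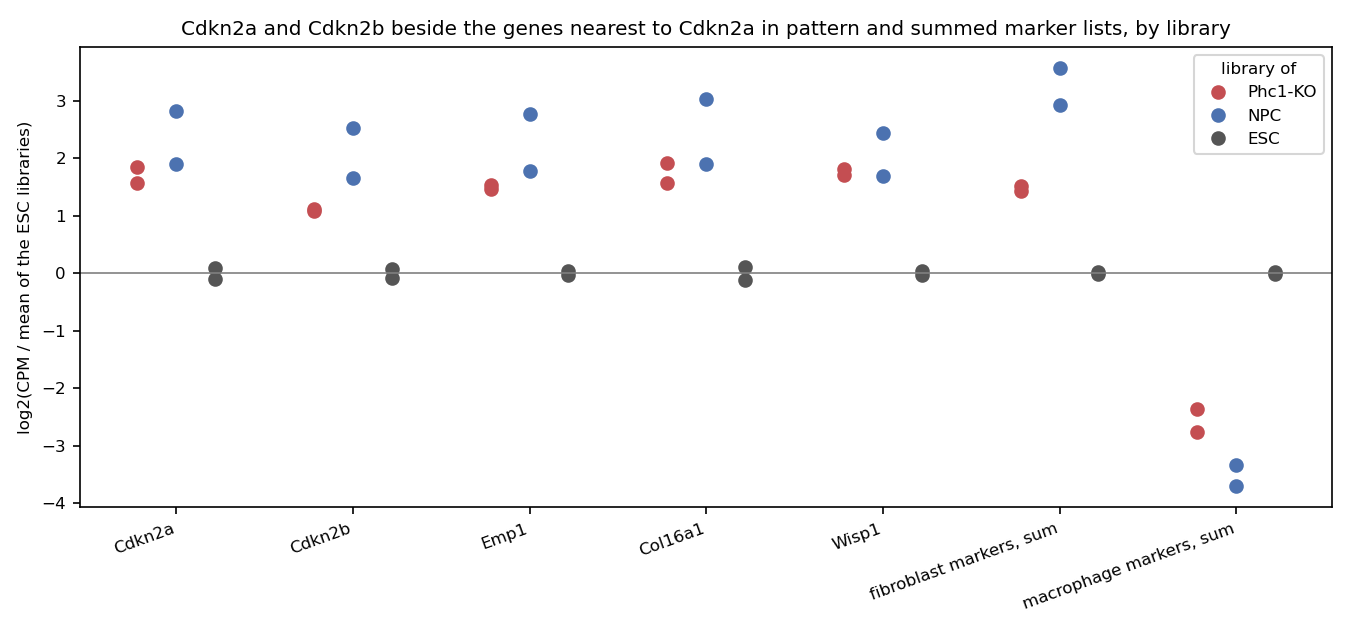
Log2 of the level in each library relative to the mean of the ESC libraries, for Cdkn2a, Cdkn2b, the 3 genes whose pattern is nearest to that of Cdkn2a, and the summed fibroblast and macrophage markers. The fibroblast sum lies above the ESC mean in all 4 Phc1-KO and NPC libraries, as Cdkn2a does, and the macrophage sum lies below it. Different markers carry the fibroblast sum in Phc1-KO and NPC, and Lyz2 carries most of the macrophage sum in ESC.

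Genes with a pattern most like Cdkn2a over the 6 libraries were Emp1 (distance 0.33), Col16a1 (0.34) and Wisp1 (0.45), among 14279 genes searched, where the distance is Euclidean between log2 CPM centred on each gene's mean. Emp1 was at 425 and 445 CPM in Phc1-KO, 526 and 1050 CPM in NPC and 149.9 and 158 CPM in ESC, so it shares the high NPC 2 library. For Cdkn1a the nearest were Map4k4 (0.22), Fam19a5 (0.23) and Mxra8 (0.25), all high in both NPC libraries. For Trp53 they were Sgpp2 (0.15), Plekhm1 (0.20) and Eftud1 (0.23), which share its high Phc1-KO 1 and lower Phc1-KO 2 library.

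Within 1 Mb of the Cdkn2a start the annotation has 66 genes, of which 27 had no count in any library and 13 were tested. In Phc1-KO against ESC, Cdkn2a was the only one of the 13 that passed, beside 10.7% of all genes, so that the count is near the background. Its neighbour Cdkn2b just missed the threshold there (edgeR adjusted p = 0.0511). More of the 13 passed in NPC against ESC, where the share over all genes was 61.3%. Mtap, the metabolic gene next to the locus, was at 101 and 114 CPM in Phc1-KO, 102 and 83.4 CPM in NPC and 87.9 and 84.2 CPM in ESC. Its log2 fold change was 0.32 ± 0.15 SE in Phc1-KO against ESC and 0.11 ± 0.15 SE in NPC against ESC, and neither passed. Klhl9, farther away, rose in NPC against ESC (0.91 ± 0.14 SE, edgeR adjusted p = 0.00138) and had -0.02 in Phc1-KO against ESC. Among numbered gene models of the region, all with 42 reads or fewer per library, Gm12607, Gm12608, Gm12609 and Gm12610 were higher in NPC than in ESC, and Gm12602 and Gm12603 had 1 read or none in each NPC library. The values of these neighbours were known when they were picked for naming.

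**Figure D3:**
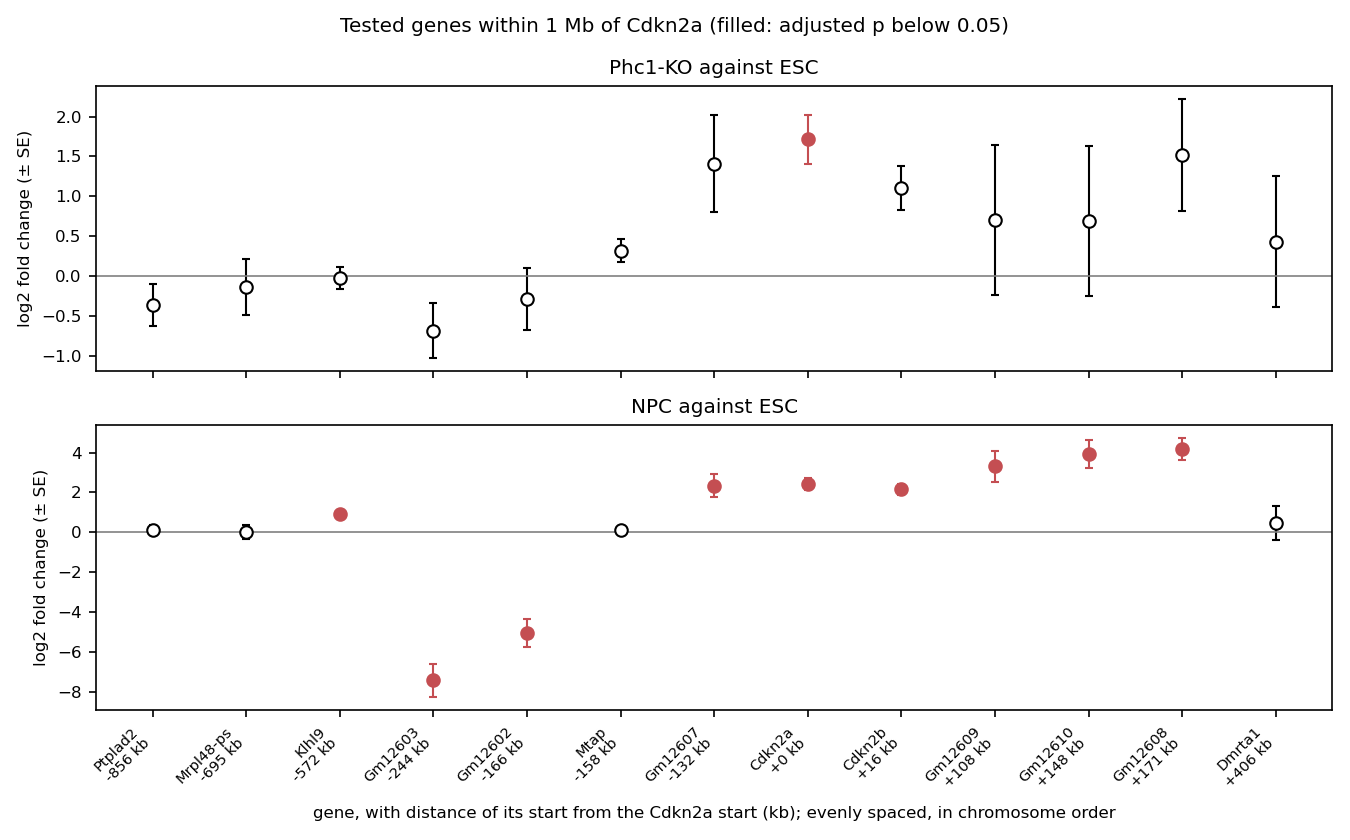
Log2 fold change (± SE) of the 13 tested genes within 1 Mb of the Cdkn2a start, evenly spaced in chromosome order with their distance in kb, for Phc1-KO against ESC (top) and NPC against ESC (bottom). In the top panel the filled point is Cdkn2a alone, and in the bottom panel both INK4 genes, Klhl9 and several low-count gene models are filled. Over all genes, 10.7% passed in the top comparison and 61.3% in the bottom one.

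Of the known Polycomb repressors of the locus, Bmi1 and Cbx8 were higher where Cdkn2a was higher. Bmi1, the PRC1 subunit whose loss is known to release Cdkn2a, was at 43.7 and 47.5 CPM in Phc1-KO, 84.6 and 85.1 CPM in NPC and 9.75 and 9.31 CPM in ESC. The 3 groups did not overlap. Bmi1 rose, on the log2 scale, by 2.26 ± 0.14 SE in Phc1-KO against ESC (edgeR adjusted p = 0.00164) and 3.15 ± 0.15 SE in NPC against ESC (adjusted p = 1.26e-05). Cbx8, a chromodomain subunit, rose by 1.84 ± 0.37 SE in Phc1-KO (adjusted p = 0.027) and 3.71 ± 0.37 SE in NPC, each against ESC, at levels of 20.3 CPM or less. The Bmi1 call in Phc1-KO against ESC held in all 14 alternatives (edgeR adjusted p up to 0.0334), while that of Cbx8 was lost without Phc1-KO 1 (0.0646), Phc1-KO 2 (0.138), ESC 1 (0.0806) or ESC 2 (0.209) and with the ESC pair summed (0.102). Cbx7, another chromodomain subunit, fell in NPC by 2.59 ± 0.31 SE and had 0.00 ± 0.29 SE in Phc1-KO. Ezh2, the PRC2 methyltransferase, fell in NPC by 1.60 ± 0.16 SE and had -0.27 ± 0.16 SE in Phc1-KO, which did not pass. Ring1 rose in NPC by 1.10 ± 0.20 SE, and Rnf2 passed in neither comparison with ESC.

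Over the 10 genes, 6 rose and 1 fell in NPC against ESC, where 61.3% of all 17489 genes tested passed in either direction. The count is thus close to the background. Cdkn1a, Ccng1, Plk2, Phlda3, Cdkn2a and Cdkn2b rose and Trp53 fell, and the median log2 fold change was 1.43, against -0.01 over all genes. In Phc1-KO against ESC, 5 rose and 0 fell (Cdkn2a, Bax, Plk2, Ccng1 and Aen), where 10.7% of all genes passed, with a median of 0.60 against 0.00067 over all genes. Over all genes 858 were higher and 1006 lower in that comparison, a balance that moved with the setting. It was 683 higher and 1223 lower with libraries scaled by total count, 924 and 929 with DESeq2 size factors, 1342 and 1142 in the DESeq2 test, 672 and 501 without Phc1-KO 1, and 81 and 57 without Phc1-KO 2. In Phc1-KO against NPC, 3 rose (Trp53, Bax and Aen) and 4 fell (Cdkn1a, Ccng1, Plk2 and Cdkn2b), where 64.9% of all genes passed. The comparisons share libraries, so their counts are not independent. The 10 genes were chosen with earlier results of these data known, so their counts and medians cannot be read as an excess.

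Calls of the 10 genes in Phc1-KO against ESC depended on single libraries. None of the 5 passed without ESC 1, without ESC 2, without Phc1-KO 2 or with the ESC pair counted as 1 library. Without Phc1-KO 1, 4 passed and Cdkn2a did not (edgeR adjusted p = 0.0838). Over the 14 alternatives the adjusted p of Cdkn2a ranged between 3.44e-06 and 0.154, of Plk2 between 2.17e-06 and 0.205, of Ccng1 between 3.66e-06 and 0.252, of Bax between 0.000291 and 0.231 and of Aen between 0.00710 and 0.396. Their log2 fold changes stayed positive in all 14, with Cdkn2a between 1.57 and 1.85. Aen, with the smallest of the 5 changes, also missed the threshold under total-count scaling (0.0552), without the filter on low counts (0.0702) and with the replicate block (0.0735).

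**Figure D4:**
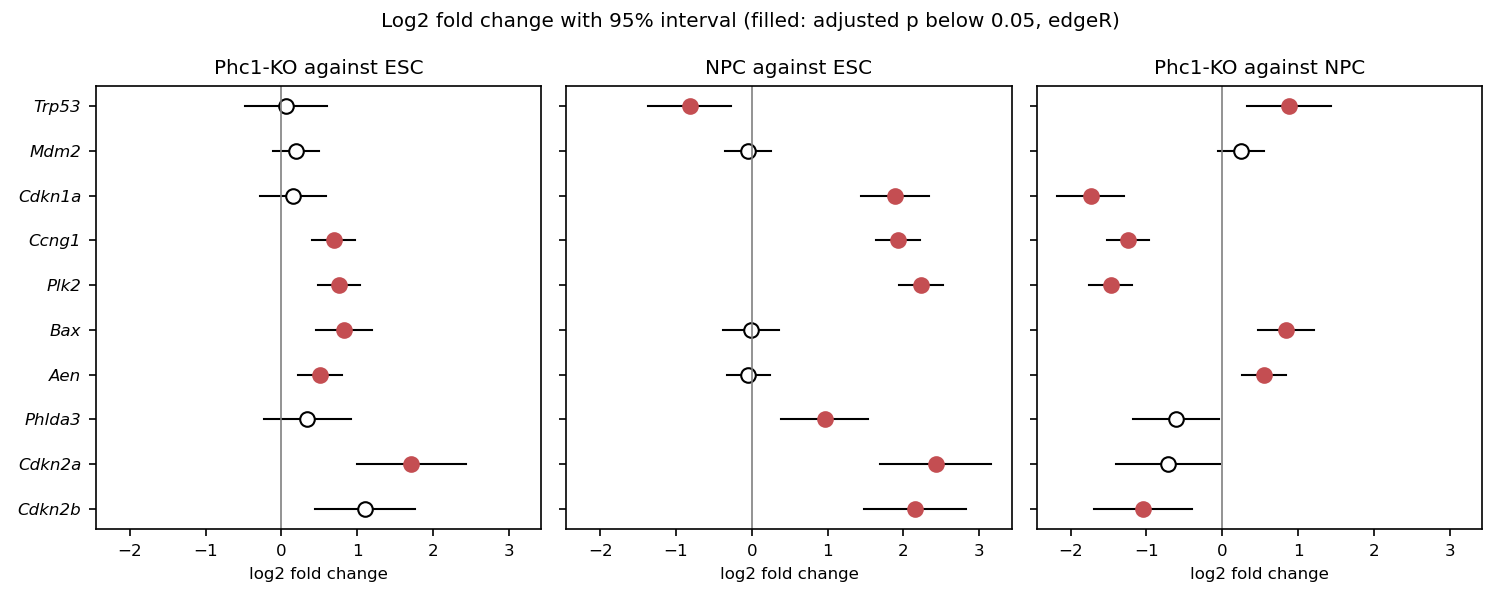
Log2 fold change of the 10 genes with its 95% interval in Phc1-KO against ESC, NPC against ESC and Phc1-KO against NPC, filled where the edgeR adjusted p was below 0.05. Cdkn1a, Ccng1, Plk2, Cdkn2a and Cdkn2b lie right of 0 in NPC against ESC, and Bax and Aen lie right of 0 in both comparisons of Phc1-KO.

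In a wider list of 10 p53 targets of cell cycle arrest, which holds Cdkn1a, Ccng1 and Plk2, 5 were higher and 3 lower in NPC than in ESC, and 2 were higher and 1 lower in Phc1-KO than in ESC. The shares over all genes were 61.3% and 10.7%. The 3 calls in Phc1-KO became 0 without Phc1-KO 2, ESC 1 or ESC 2, and 6 without either NPC library. Rprm, a target that arrests the cycle before mitosis, was at 4.14 and 4.79 CPM in Phc1-KO, 16.7 and 11.8 CPM in NPC and 3.64 and 2.92 CPM in ESC, and rose in NPC by 2.11 ± 0.28 SE. Sfn, the gene of 14-3-3 sigma, was at 16.4 and 22.4 CPM in Phc1-KO, 0.263 and 0.325 CPM in NPC and 36.9 and 39.4 CPM in ESC. It fell by 6.98 ± 0.31 SE in NPC (edgeR adjusted p = 1.11e-05) and by 0.97 ± 0.20 SE in Phc1-KO (adjusted p = 0.0296), each against ESC. The call in Phc1-KO was lost without any 1 of the Phc1-KO and ESC libraries (adjusted p between 0.0628 and 0.262).

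Of 14 p53 targets of apoptosis, among them Bax, Aen and Phlda3, 7 were higher and 3 lower in NPC than in ESC, and 2 were higher and 1 lower in Phc1-KO than in ESC, beside 61.3% and 10.7% of all genes, so that the count in NPC is near the background. The 3 calls in Phc1-KO became 0 without Phc1-KO 2, ESC 1 or ESC 2. The BH3-only killer genes Pmaip1 and Bbc3 fell in NPC. Pmaip1 (Noxa) was at 68.9 and 73.6 CPM in Phc1-KO, 13.0 and 18.4 CPM in NPC and 62.1 and 64.4 CPM in ESC, a log2 fold change of -2.01 ± 0.19 SE in NPC against ESC. Bbc3 (Puma) was at -1.57 ± 0.17 SE and Perp, a membrane protein of the same response, -1.52 ± 0.14 SE. The death receptor gene Eda2r was higher in NPC by 1.04 ± 0.13 SE. Apaf1, the scaffold of the apoptosome, fell in Phc1-KO (log2 fold change -0.47 ± 0.12 SE, edgeR adjusted p = 0.0485) and rose in NPC (0.79 ± 0.12 SE), each against ESC. Its call in Phc1-KO was lost in 8 of 14 alternatives (adjusted p up to 0.411).

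Among 12 targets of repair and metabolism, 4 were higher and 4 lower in NPC, and 0 were higher and 2 lower in Phc1-KO, each against ESC, beside 61.3% and 10.7% of all genes. Ddit4, an inhibitor of mTORC signalling, was at 44.6 and 42.1 CPM in Phc1-KO, 60.4 and 71.5 CPM in NPC and 239 and 245 CPM in ESC. It fell in Phc1-KO by 2.48 ± 0.14 SE (edgeR adjusted p = 0.00111) and in NPC by 1.87 ± 0.14 SE. Gls2, a mitochondrial glutaminase, was at 14.0 and 17.4 CPM in Phc1-KO, 0.855 and 1.17 CPM in NPC and 28.5 and 29.3 CPM in ESC. It fell by 0.88 ± 0.20 SE in Phc1-KO (adjusted p = 0.0385) and by 4.83 ± 0.26 SE in NPC. The Ddit4 call in Phc1-KO held in all 14 alternatives (adjusted p up to 0.0352), and that of Gls2 was lost in 6 (adjusted p up to 0.311), among them each without 1 Phc1-KO or ESC library. Sesn1, a stress-induced regulator of mTORC signalling, was higher in NPC by 1.42 ± 0.16 SE, and Tigar, a regulator of glycolysis listed in the annotation as 9630033F20Rik, had -2.01 ± 0.26 SE there. Over the 36 targets of these 3 lists, 16 rose and 10 fell in NPC against ESC, with a median of 0.22. In Phc1-KO against ESC 4 rose and 4 fell, with a median of 0.12. The 4 that rose in Phc1-KO (Plk2, Ccng1, Bax and Aen) are all among the 10 genes. The 4 that fell (Sfn, Apaf1, Ddit4 and Gls2) are not. The 8 calls in Phc1-KO became 1 without ESC 1, without ESC 2 or without Phc1-KO 2.

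**Figure D5:**
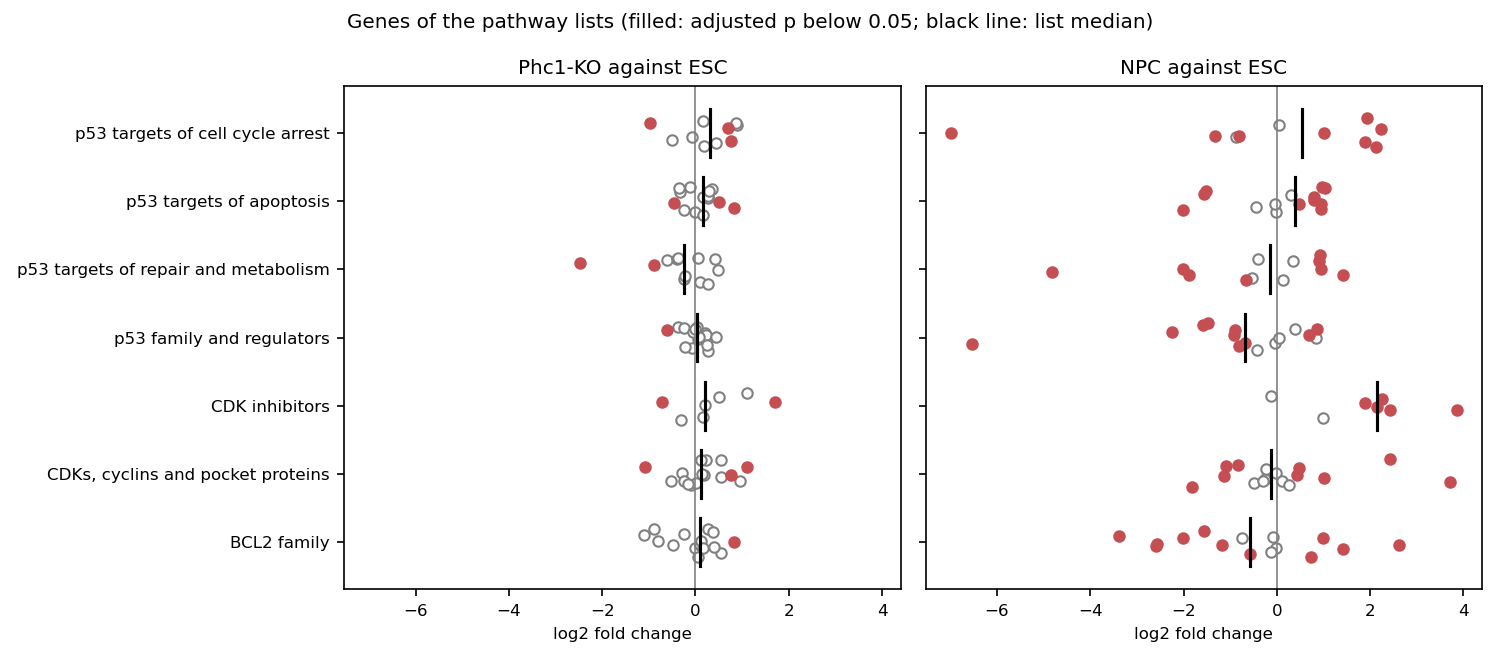
Log2 fold change of every tested gene of 7 pathway lists in Phc1-KO against ESC (left) and NPC against ESC (right), filled where the edgeR adjusted p was below 0.05, with the list median as a black line. Targets of p53 lie on both sides of 0, and the CDK inhibitors in NPC have the highest median, 2.15.

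Of 15 tested regulators and relatives of p53, 8 were lower and 2 higher in NPC than in ESC, and 1 was lower in Phc1-KO than in ESC, beside 61.3% and 10.7% of all genes, so that the count in NPC is near the background. Chek2, a checkpoint kinase that phosphorylates p53 in response to DNA breaks, fell in NPC by 2.25 ± 0.17 SE. Chek1 fell by 1.59 ± 0.18 SE and Usp7, a deubiquitinase of Mdm2 and p53, by 1.47 ± 0.14 SE in NPC. The family member Trp73 was at 4.24 and 4.64 CPM in Phc1-KO, 0 and 0.0649 CPM in NPC (at most 1 read per library) and 3.82 and 3.59 CPM in ESC. Atr, the kinase of the replication stress checkpoint, was the one that fell in Phc1-KO (by 0.61 ± 0.15 SE, edgeR adjusted p = 0.046), a call lost in 8 of 14 alternatives, with adjusted p between 0.0177 and 0.348. It was lost without any 1 of the Phc1-KO and ESC libraries, with the ESC pair summed, with DESeq2 size factors, without the filter and with the replicate block.

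Of the 7 CDK inhibitor genes, 5 rose and 0 fell in NPC against ESC, with a median log2 fold change of 2.15, and 1 rose and 1 fell in Phc1-KO against ESC, with a median of 0.20. The shares over all genes were 61.3% and 10.7%, so that the count in NPC is near the background. Both calls in Phc1-KO were lost without any 1 of the Phc1-KO and ESC libraries, and 3 rose and 1 fell without either NPC library. Besides Cdkn1a, Cdkn2a and Cdkn2b, Cdkn2c (p18Ink4c) was at 1.10 and 2.66 CPM in Phc1-KO, 37.3 and 31.2 CPM in NPC and 2.34 and 2.37 CPM in ESC, and rose in NPC by 3.86 ± 0.38 SE (edgeR adjusted p = 0.000194). Cdkn1c (p57Kip2), an imprinted gene, was at 58.3 and 50.6 CPM in Phc1-KO, 174 and 194 CPM in NPC and 36.9 and 39.8 CPM in ESC, and rose in NPC by 2.26 ± 0.14 SE (adjusted p = 3.58e-05). In Phc1-KO its value against ESC was 0.51 ± 0.14 SE with edgeR adjusted p = 0.0622, above the threshold. It passed in 4 of 14 alternatives, with log2 fold changes between 0.41 and 0.61 over all of them. Cdkn1b (p27Kip1) was at 55.7 and 57.8 CPM in Phc1-KO, 76.3 and 94.5 CPM in NPC and 94.7 and 91.9 CPM in ESC. It fell in Phc1-KO against ESC by 0.72 ± 0.15 SE (adjusted p = 0.0279, range over the alternatives 0.00244 to 0.277), and had -0.13 ± 0.14 SE in NPC. Cdkn2d (p19Ink4d) stayed below 1 CPM in every library and passed in no comparison.

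A list of 16 genes of kinases, cyclins, pocket proteins and E2F factors showed no common direction. Of these, 5 were higher and 4 lower in NPC, and 2 higher and 1 lower in Phc1-KO, each against ESC, beside 61.3% and 10.7% of all genes. Ccnd2, a D-type cyclin bound by CDK4 and CDK6, was at 373 and 272 CPM in Phc1-KO, 2093 and 1781 CPM in NPC and 152 and 146 CPM in ESC. It rose by 3.70 ± 0.20 SE in NPC and 1.12 ± 0.18 SE in Phc1-KO (edgeR adjusted p = 0.0156). Ccnd1 rose by 2.43 ± 0.46 SE in NPC. Ccne1, the cyclin partner of CDK2, fell in NPC by 1.81 ± 0.13 SE and rose in Phc1-KO by 0.76 ± 0.13 SE (adjusted p = 0.0179). Rb1, the retinoblastoma gene, was at 22.6 and 18.0 CPM in Phc1-KO, 62.2 and 56.2 CPM in NPC and 40.9 and 44.3 CPM in ESC, and fell in Phc1-KO by 1.07 ± 0.17 SE (adjusted p = 0.0139). The 3 calls in Phc1-KO became 0 without ESC 1, without ESC 2 or with that pair summed, 1 (Ccnd2) without Phc1-KO 2, where Rb1 (adjusted p = 0.0756) and Ccne1 (0.0721) missed the threshold, and 6 without either NPC library. E2f1, a factor held by the retinoblastoma protein, fell in NPC by 1.13 ± 0.15 SE.

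Within the BCL2 family, to which Bax belongs, 4 of 15 rose and 7 fell in NPC, and 1 (Bax) rose in Phc1-KO, each against ESC, beside 61.3% and 10.7% of all genes. In Phc1-KO the count was 1 higher and 3 lower without either NPC library or with only the 2 groups compared, 1 higher and 1 lower in the DESeq2 test, 2 higher without Phc1-KO 1, and 0 without Phc1-KO 2, ESC 1 or ESC 2. Bcl2, the founding survival gene, was at 3.61 and 2.56 CPM in Phc1-KO, 37.7 and 32.8 CPM in NPC and 5.98 and 5.47 CPM in ESC, and rose in NPC by 2.62 ± 0.23 SE (edgeR adjusted p = 0.000122). The death-promoting genes Bid, Hrk and Bik fell in NPC, with log2 fold changes of -2.60 ± 0.21 SE, -2.57 ± 0.33 SE and -3.39 ± 0.67 SE against ESC, the last with levels under 3 CPM in every library.

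Set against NPC, Phc1-KO differed in the same lists at many genes, in a comparison where 64.9% of all genes passed. Arrest targets had 4 higher and 6 lower of 10, with Sfn (log2 fold change 6.01 ± 0.31 SE), Plk3 (2.18 ± 0.28 SE) and Gadd45a (1.77 ± 0.36 SE), both stress-induced, highest. Apoptosis targets had 6 higher and 6 lower of 14, with Pmaip1 at 2.18 ± 0.19 SE, Perp at 1.51 ± 0.14 SE, Bbc3 at 1.31 ± 0.17 SE and the death receptor gene Fas at -1.27 ± 0.22 SE. Repair and metabolism targets had 4 higher and 5 lower of 12, with Gls2 at 3.94 ± 0.26 SE, Tigar at 2.50 ± 0.26 SE, Sesn1 at -1.80 ± 0.16 SE and the repair polymerase gene Polk at -1.30 ± 0.17 SE. Regulators of p53 had 6 higher and 3 lower of 15, among the higher ones Usp7 (1.71 ± 0.14 SE) and Chek1 (1.52 ± 0.18 SE).

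In Phc1-KO against NPC, where 64.9% of all genes passed, the counts of CDK inhibitors and of the BCL2 family were near that share. CDK inhibitors had 0 higher and 5 lower of 7. Cdkn2c gave the largest of these differences (log2 fold change -4.17 ± 0.38 SE, edgeR adjusted p = 0.000138), then Cdkn1c (-1.75 ± 0.14 SE) and Cdkn1a, and Cdkn1b had -0.59 ± 0.15 SE (adjusted p = 0.00961, or 0.0501 with the ESC pair summed). The cyclins they restrain differed in both directions, with Ccnd2 at -2.59 ± 0.19 SE, Ccnd1 at -1.48 ± 0.44 SE and Ccne1 at 2.57 ± 0.14 SE, and Rb1 had -1.55 ± 0.17 SE. The Ccnd1 call was lost without Phc1-KO 1 (adjusted p = 0.129) or Phc1-KO 2 (0.149). In the BCL2 family 7 were higher and 4 lower of 15, with Hrk (2.97 ± 0.32 SE), Bid (2.65 ± 0.21 SE) and Bik (2.28 ± 0.72 SE) higher and Bcl2 (-3.51 ± 0.24 SE) lower, of which Bik missed the threshold without Phc1-KO 2 (adjusted p = 0.158) or NPC 2 (0.129). Of the Polycomb repressors, Cbx7 (2.59 ± 0.31 SE) and Ezh2 (1.34 ± 0.16 SE) were higher, and Cbx8 (-1.87 ± 0.32 SE), Bmi1 (-0.90 ± 0.13 SE) and Ring1 (-0.74 ± 0.20 SE) were lower in Phc1-KO than in NPC. The Ring1 call was lost without ESC 1 (adjusted p = 0.0505), with that pair summed (0.0570) and with only the 2 groups compared (0.0562).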

How the data were processed

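RNA was measured in 6 libraries, 2 per group: Phc1-KO, NPC and ESC. Per the labels' protocols, total RNA was depleted of rRNA (Ribo-Zero Gold), turned into TruSeq libraries and read as 50-base single ends. The authors deposited unnormalized read counts for each Ensembl gene, and the submitters' processing notes name STAR, HTSeq and mm9. Tool versions and the counting of strands are not given in the sources used, and 5 closing tallies per table stayed out of library sizes and tests. Reads outside genes numbered between 0.661 (Phc1-KO 2) and 1.09 (NPC 2) per read in a gene over the libraries. The Phc1-KO pair differed most, with 1.08 in Phc1-KO 1.

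GENCODE M1 (mm9) named 37205 of 37620 genes. Counts were tested with edgeR 4.0.16 (R 4.3.3): quasi-likelihood F test, 1 term per group, all 6 libraries, TMM scaling, and filterByExpr (minimum count 10, total 15). This kept 17489 genes, with 3 residual degrees of freedom. P values were adjusted by Benjamini-Hochberg over all genes tested, with a threshold of 0.05. SEs were taken from the log2 fold change and F. The fit was tested on simulated data with known changes. Phc1-KO was set against both wild-type groups because its labels conflict.

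Members and lists were chosen with earlier results of these data known; 134 distinct list genes were found, 2 under an older symbol. Named genes were Phc1, the 10 members, every CDK inhibitor and Polycomb list gene, up to 4 largest changes past the threshold per other list and comparison, and the 3 genes nearest in pattern to Trp53, Cdkn1a and Cdkn2a (log2 CPM, prior count 2). The labels call the libraries of a group biological replicates. Beyond counting noise the pairs differed by a coefficient of variation of 15.3% in Phc1-KO, 13.7% in NPC and 1.45% in ESC, so the ESC pair was also counted as 1 library. Alternatives were DESeq2 1.42.0, limma-voom (limma 3.58.1), DESeq2 size factors, total-count scaling, no filter, fits of only the 2 groups compared, a replicate block and each library left out in turn.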

Additional observations from a re-analysis of the deposited data

How the results depend on the processing

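The 10 genes gave 7 calls in NPC against ESC in the fit as reported and 5 to 7 in all 14 alternatives, and 7 calls in Phc1-KO against NPC and 6 to 9 in the alternatives. Phc1-KO against ESC was less stable. With 1 library left out in turn, the 5 members called became 0 to 6, and the 1864 genes called over the whole table became 92 to 3715. With the ESC pair summed as 1 library 0 members and 145 genes passed, and with only the 2 groups compared 3899 genes passed. The cause of these shifts was not tested. Directions turned for values that had not passed: the log2 fold change of Trp53 in Phc1-KO against ESC was -0.01 (-0.0149) under total-count scaling and ranged between -0.33 and 0.38 with 1 library left out, that of Cdkn1a in the same comparison between -0.03 (-0.0312) and 0.33, and that of Bax in NPC against ESC between -0.07 (-0.0690) and 0.05 (0.0520). Among the other genes named without a call, the value of Cdkn1b in NPC against ESC ranged between -0.28 and 0.02 (0.0201) with 1 library left out. In Phc1-KO against ESC the same ranges were -1.09 to 0.18 for Cdkn2c, -0.34 to 1.07 for Cdkn2d, -0.06 (-0.0626) to 0.07 (0.0661) for Cbx7 and -0.07 (-0.0706) to 0.16 for Rnf2, and Rnf2 in Phc1-KO against NPC ranged between -0.18 and 0.06 (0.0572). Cbx7 in Phc1-KO against ESC was 0.03 (0.0271) in the DESeq2 test and with DESeq2 size factors and 0.01 (0.00572) with the replicate block, and Rnf2 was -0.04 (-0.0413) under total-count scaling. Replicate numbers did not pair the libraries: deviations of same-numbered libraries correlated at -0.02 between Phc1-KO and NPC, 0.02 between Phc1-KO and ESC, and 0.02 between NPC and ESC. With the replicate block, 10424 genes and 7 members passed in NPC against ESC, 1427 and 5 in Phc1-KO against ESC (with Aen lost at adjusted p = 0.0735 and Cdkn2b gained at 0.0453), and 11061 and 8 in Phc1-KO against NPC. Depth limits Cdkn2d, Bik and the numbered gene models, which had few reads, and with 2 libraries per group small changes can be missed. Scaling by total count moved the mean levels of the 10 genes by -3.46% to 2.73%.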
